A study of Mus musculus with 6 samples.

Results

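The 4 Hox clusters, Hoxa on mouse chromosome 6, Hoxb on chromosome 11, Hoxc on chromosome 15 and Hoxd on chromosome 2, were examined in marrow cells shortly after the oncogene MN1 was introduced. Members were all genes whose only annotated symbol is Hoxa, Hoxb, Hoxc or Hoxd followed by a number, and 37 of the 19938 genes tested met this rule: 10 in Hoxa, 9 in Hoxb, 9 in Hoxc and 9 in Hoxd. Hoxb8 has no probe set annotated to it alone and was not analysed here.

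The 2 groups were mouse marrow cells carrying MN1 on a retroviral MSCV vector and marrow cells given the empty vector with the reporter alone, with 3 arrays each from what the series description calls independent experiments. All cells were sorted for the fluorescent reporter 72 hours after transduction, and both groups share the vector and the sort. The reporter is named GFP by the labels of the samples but YFP by the description of the study. The labels give no strain, age or sex of the animals and do not say whether marrow was pooled. The sorted cells are a mixture, and in such bulk RNA fewer cells of a type and less RNA per cell cannot be told apart.

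Hox genes encode homeodomain transcription factors. They lie in clusters in which the order of the genes, from paralog group 1 at the 3′ end to group 13 at the 5′ end, follows the order in which they are switched on along the body axis of the embryo, and genes near the 3′ end are classic targets of retinoic acid. In blood formation, Hoxa and Hoxb genes are used by stem and progenitor cells and are shut down as cells mature. Hoxa9, with its cofactor Meis1, is among the best known drivers of acute myeloid leukaemia, and MN1 is itself a coactivator of the retinoic acid receptor.

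No Hox gene passed the test between MN1 and empty vector cells. Among the 37 members 0 were called at an adjusted p under 0.05 (limma with Benjamini-Hochberg adjustment over all genes, smallest adjusted p among members 0.584), beside 0.0% of all 19938 genes. Differences of members were small on the log2 scale, from -0.35 for Hoxc5 to 0.09 for Hoxa3. The 95% interval of the difference, taken gene by gene without adjustment, lay inside a 2-fold change in either direction for 37 of 37 members, as it did for 88.5% of all genes. Across members these intervals reached from -0.75, for Hoxa5, to 0.64, for Hoxa9. Mn1 itself, which checks the labels, measured 6.47, 6.62 and 6.08 in MN1 cells, against 5.34, 5.41 and 4.80 in empty vector cells, a log2 difference of 1.20 ± 0.21 (SE) with an adjusted p of 0.584 (limma).

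**Figure D1:**
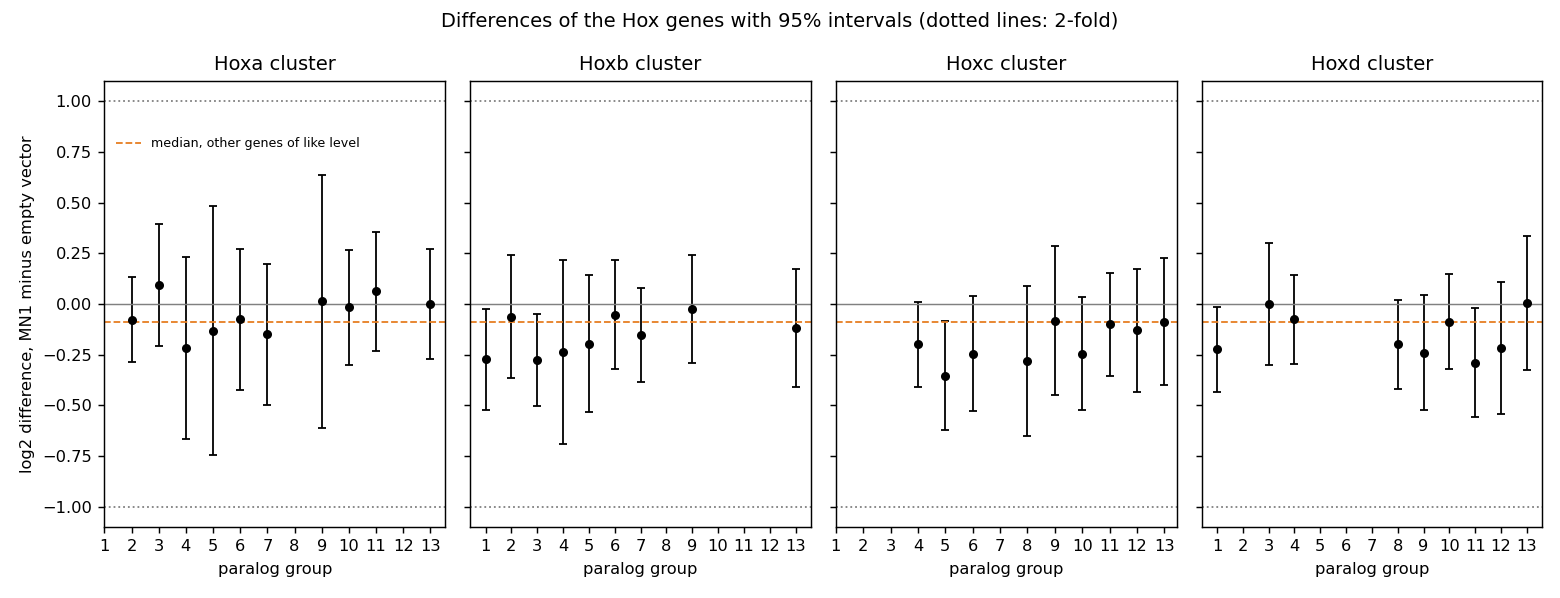
Log2 difference, MN1 minus empty vector, of each measured Hox gene (points) with its 95% interval (bars) by paralog group, one panel per cluster; the dashed line is the median of other genes of like level, -0.09, and the dotted lines mark a 2-fold change. All 37 intervals stay inside the dotted lines.

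Although none was called, most members leaned lower with MN1. Of the 37, 33 had a log2 difference below 0 and 4 above, with a median of -0.13, against 56.7% of all genes below 0 and a median of -0.03. Genes of low level leaned the same way on these arrays. The other 10228 genes with a mean level between those of the dimmest and the brightest Hox gene had a median of -0.09, with 68.9% below 0. For 1015 olfactory receptor genes, which are known from the nose and not from marrow, the median was -0.06 and 75.8% were below 0. At an unadjusted p under 0.05, 5 members were lower and 0 higher, which is 13.5% of the members; over all genes 4.23% were lower and 4.17% higher, over the genes of like level 6.75% lower and 3.2% higher, and over the olfactory receptor genes 2.76% lower and 0.0985% higher. The 3 MN1 values lay below all 3 empty vector values for 9 members, or 24.3%, and above them for 0, where MN1 lay below for 10.3% of all genes, 16.1% of those of like level and 13.7% of the olfactory receptor genes, and above for 5.71%, 4.17% and 1.28% in the same order. A difference of at least 2-fold was seen for 0 members, beside 1.37% of all genes and 1.07% of those of like level. The median over all probe sets ran from 5.82 on MN1 replicate 3 to 6.01 on MN1 replicate 1. Once each array was centred on its own median, the count at an unadjusted p under 0.05 was 1, beside 1377 over all genes. The median of the members was then -0.10. The member count was 0 when dim genes were left out by either filter described next, although 4 of the 5 genes (Hoxb1, Hoxb3, Hoxd1 and Hoxd11) passed both filters with the same log2 differences. Over all genes kept, the count was 1036 of 13723 under the olfactory filter and 1031 of 13681 under the other. The member count was also 1 without MN1 replicate 1, beside 1319 over all genes. It was 2 without MN1 replicate 2, MN1 replicate 3 or empty vector replicate 2, beside 1937, 1331 and 906 over all genes in that order.

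**Figure D2:**
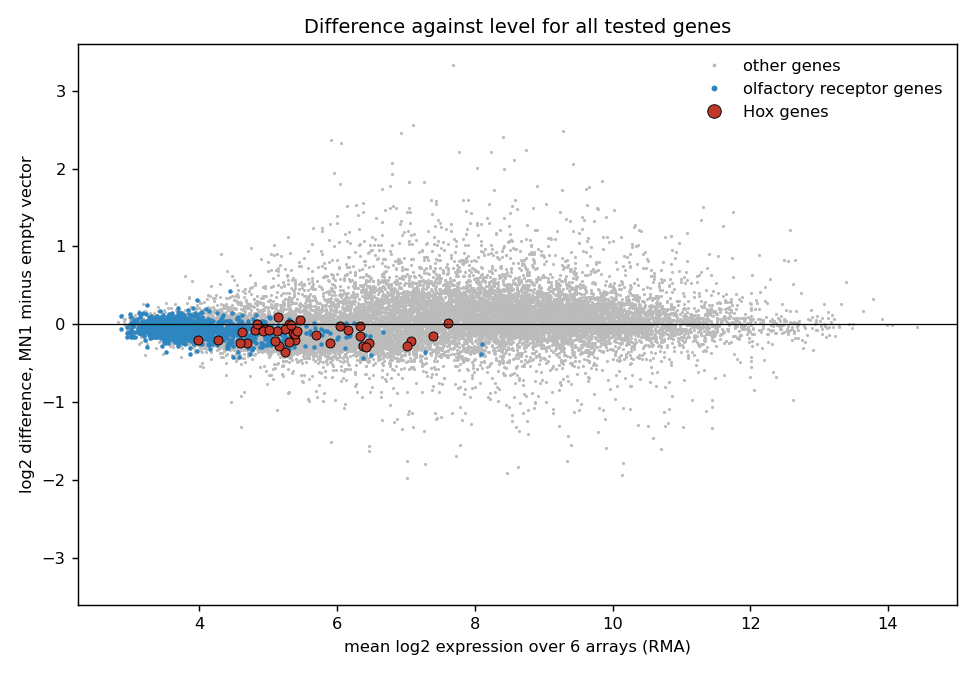
Log2 difference, MN1 minus empty vector, against the mean log2 expression over 6 arrays for all tested genes (grey), olfactory receptor genes (blue) and Hox genes (red). The Hox genes lie in the left part, between levels of 3.99 and 7.61, with differences between -0.35 and 0.09.

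Low signal limits what can be said of many members. RMA values carry no detection call, and 21 of the 37 members had a mean level above 5.28, the 95th percentile of the olfactory receptor genes. The same 21 stayed when the dimmest 40% of probe sets were left out. They were 8 of 10 Hoxa, 7 of 9 Hoxb, 2 of 9 Hoxc and 4 of 9 Hoxd genes. For the other 16, a difference may not be detectable at this signal. Levels of different probe sets are not compared here as amounts of RNA, since probe sets differ in how well they bind.

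By cluster, the Hoxa genes lay closest to 0. Their median log2 difference was -0.05, with 3 of 10 above 0 and 7 below, and 0 had groups that did not overlap. That median was 0.04 without MN1 replicate 1 and -0.11 without MN1 replicate 3. In Hoxb the median was -0.16, in Hoxc -0.20 and in Hoxd -0.20, with 3 members in each whose MN1 values lay below all empty vector values. By position, paralog groups 1 to 4 had a median of -0.20 over 11 genes, groups 5 to 8 of -0.18 over 10 genes and groups 9 to 13 of -0.09 over 16 genes. This order rested on single arrays: without MN1 replicate 1 the median was -0.056 for groups 1 to 4 and -0.077 for groups 9 to 13, and without MN1 replicate 3 it was -0.11 and -0.13. Leaving out any other array kept groups 1 to 4 below groups 9 to 13. The medians were -0.11 and -0.041 without empty vector replicate 2, and -0.16 and -0.046 without empty vector replicate 3. They were -0.19 and -0.068 without MN1 replicate 2, and -0.17 and -0.11 without empty vector replicate 1. Without empty vector replicate 1 or 2, groups 5 to 8 had the lowest median, at -0.18 and -0.20. Differences between clusters or between positions were not tested.

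Hoxa9, which stem and progenitor cells need and which is overexpressed in many acute leukaemias, measured 7.12, 7.55 and 8.18 in MN1 cells, against 7.53, 7.55 and 7.72 in empty vector cells. The empty vector values lay within 0.18 of each other and the MN1 values spread over 1.06, on both sides of them. The log2 difference was 0.01 ± 0.26 (SE; adjusted p = 0.989, limma), and its 95% interval, from -0.61 to 0.64, allows anything between 0.655 and 1.56 times the empty vector level. Single arrays set its sign: the difference was 0.26 without MN1 replicate 1 and -0.27 without MN1 replicate 3. It was -0.08 after quantile normalization.

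Hoxa7, which is often activated together with Hoxa9 in leukaemia, had values of 7.06, 7.31 and 7.57 in MN1 cells, against 7.42, 7.42 and 7.55 in empty vector cells, a log2 difference of -0.15 ± 0.14 (SE). It was -0.02 without MN1 replicate 1 and -0.28 without MN1 replicate 3. Here too the groups overlapped, with MN1 replicate 1 the lowest of the 6 arrays and MN1 replicate 3 the highest. For Hoxa4, the values were 6.97, 7.18 and 6.75 in MN1 cells, against 6.84, 7.41 and 7.29 in empty vector cells, a difference of -0.22 ± 0.19. The largest difference above 0 was that of Hoxa3, a gene of pharyngeal and thymus development. Its mean level was under the level set by the olfactory receptor genes, their 95th percentile. It measured 5.06, 5.34 and 5.17 in MN1 cells, against 5.07, 5.26 and 4.96 in empty vector cells. That is 0.09 ± 0.12, within the spread of either group. Hoxa11, which patterns limb and kidney, followed at 0.06 ± 0.12. This was the largest difference above 0 among members above the level set by the olfactory receptor genes. Hoxa11 measured 5.39, 5.44 and 5.66 in MN1 cells, against 5.38, 5.59 and 5.34 in empty vector cells. Without MN1 replicate 3 its difference was -0.02. Hoxa10, a regulator of myeloid progenitors, differed by -0.02 ± 0.12.

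**Figure D3:**
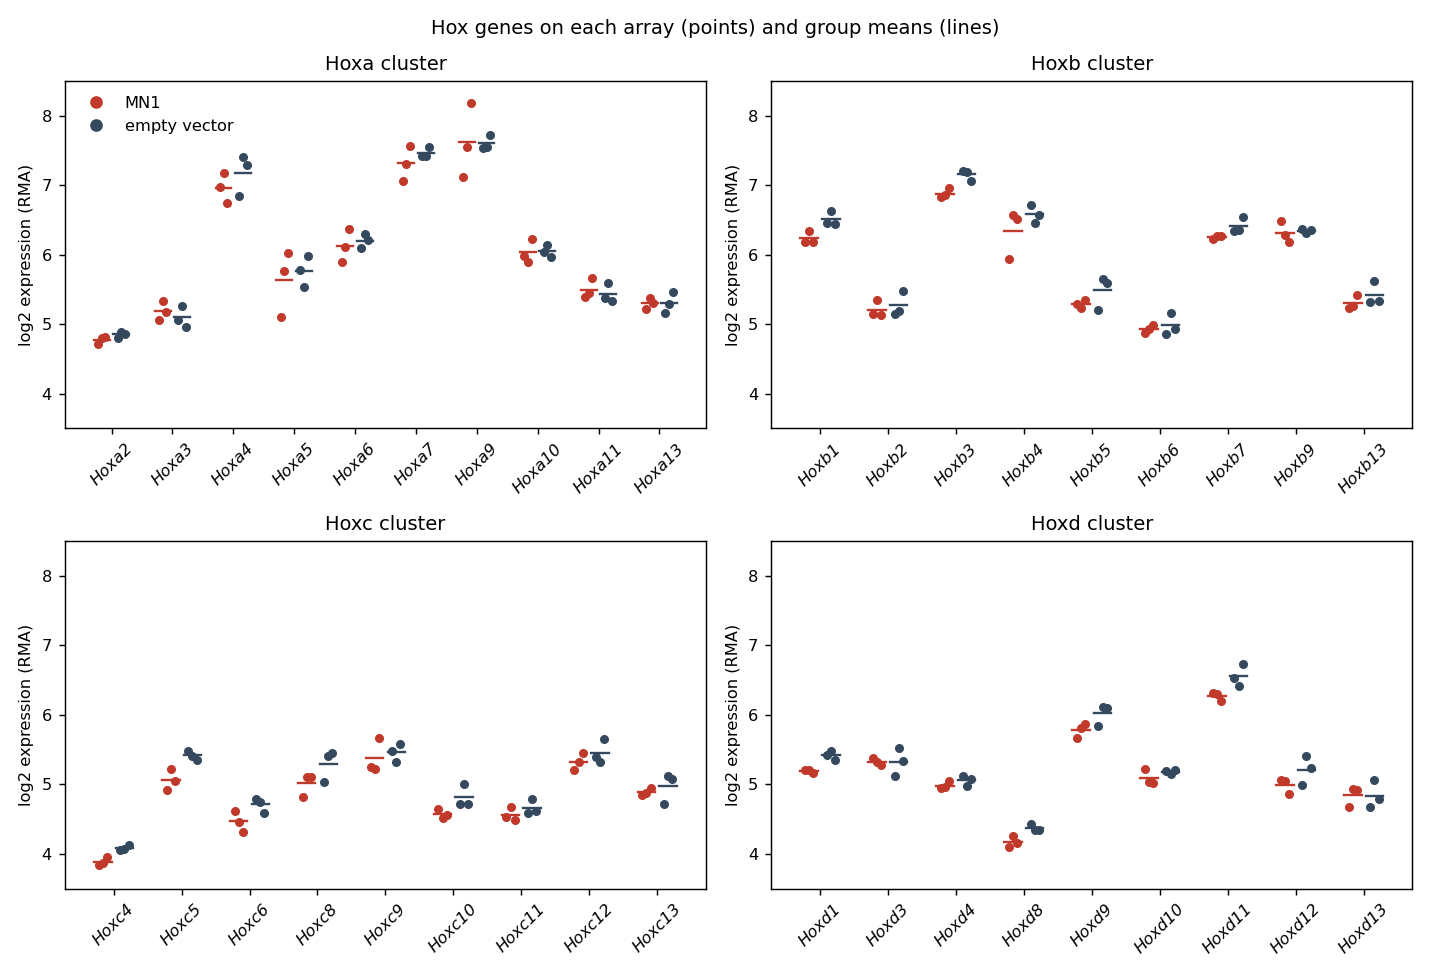
Log2 expression (RMA) of each measured Hox gene on every array, with MN1 arrays left of empty vector arrays for each gene; points are arrays and lines are group means (n = 3 each). The MN1 values of Hoxa9 and Hoxa5 spread over 1.06 and 0.93, wider than those of any other member.

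The neighbours Hoxa5, Hoxa6, Hoxa7 and Hoxa9 varied together among the 3 MN1 arrays, an observation made after their values were seen. Hoxa5, linked in human marrow progenitors to the choice between myeloid and erythroid cells, measured 5.10, 5.77 and 6.03 in MN1 cells, against 5.77, 5.53 and 5.98 in empty vector cells. Hoxa6 measured 5.89, 6.11 and 6.37 in MN1 cells, against 6.10, 6.30 and 6.21 in empty vector cells. For all 4, MN1 replicate 1 was the lowest and MN1 replicate 3 the highest of the MN1 arrays. The same held for 16 of the 37 members (43.2%), 6 of them in Hoxa, against 16.9% of the other genes of like level and 18.8% of all genes. The pooled within-group SD was 0.38 for both Hoxa9 and Hoxa5, above that of 89.5% and 89.2% of the other genes of like level, so about 1 in 10 such genes varied more. The median pooled SD was 0.13 over all 37 members and 0.16 over those genes.

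Other markers also differed among the MN1 arrays. Averaged over 14 measured stem and early progenitor markers, MN1 replicates 1, 2 and 3 measured 9.04, 9.42 and 9.34, against 8.64, 8.34 and 8.71 in empty vector replicates 1, 2 and 3; 12 of the 14 were higher with MN1. The 6 megakaryocyte markers averaged 11.46, 10.60 and 9.65 in MN1 cells, against 10.07, 8.68 and 9.75 in empty vector cells, and all 6 were higher with MN1. The 6 primary granule markers, all lower with MN1, averaged 8.31, 10.43 and 8.93 in MN1 cells, against 11.10, 11.90 and 8.60 in empty vector cells. Myb, a transcription factor of dividing progenitors and a Hoxa9 target, measured 8.76, 10.52 and 10.38 in MN1 cells, against 10.20, 10.25 and 10.45 in empty vector cells. MN1 replicate 1 was the low array here as well, but it was the lowest MN1 array for 38.65% of all genes. Myb is singled out after its values were seen. Of the other lists, the higher and lower counts were 8 and 4 for B lineage, 7 and 3 for monocyte, 1 and 9 for late granulocyte, 1 and 8 for mast cell and eosinophil, 2 and 6 for erythroid, 2 and 6 for T and natural killer and 2 and 8 for stromal markers; none of these genes was called. The 3 measured Y-linked genes, a sign of the sex of the donors, differed widely among arrays, from 7.04 to 8.57 in MN1 cells and from 3.43 to 8.24 in empty vector cells for Eif2s3y. Whether the mix of cells or of donors has a part in the Hox values was not tested.

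**Figure D4:**
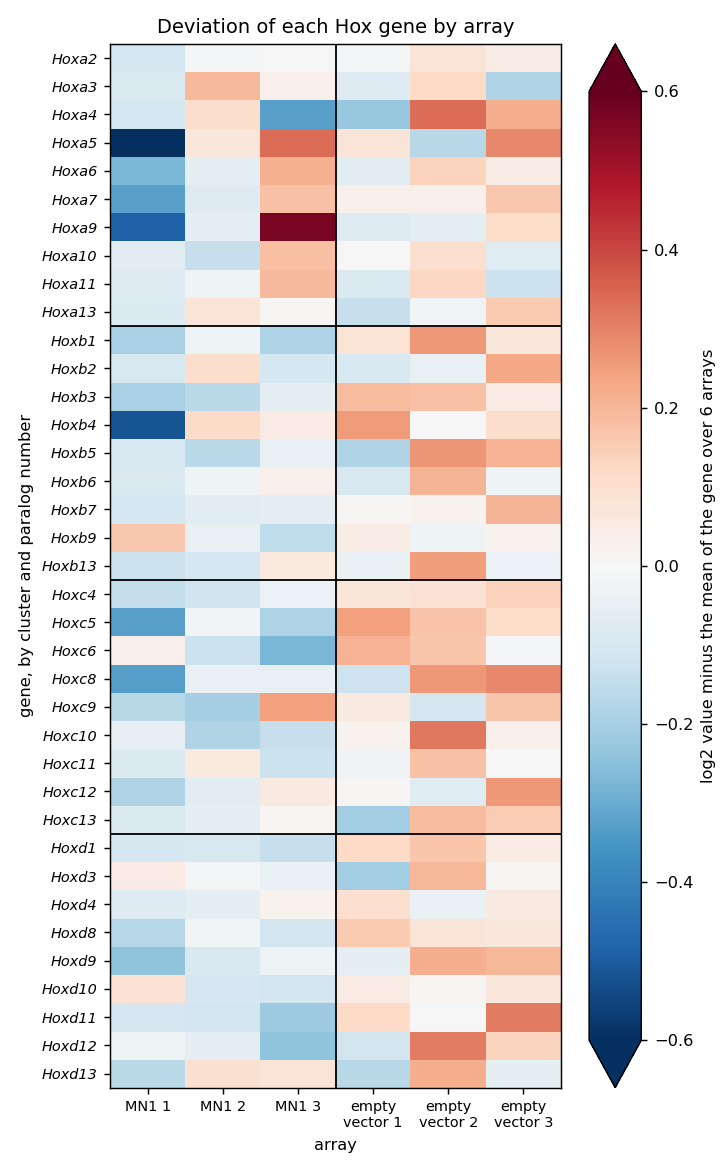
Log2 value of each Hox gene on each array minus the mean of that gene over all 6 arrays, by cluster and paralog number, with MN1 arrays left and empty vector arrays right. MN1 replicate 1 is low for Hoxa5, Hoxa9 and Hoxb4 and MN1 replicate 3 is high for Hoxa9 and Hoxa5.

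The sequences just upstream of these 4 neighbouring genes and of Hoxb4, whose difference rested on MN1 replicate 1, are shown as examples of members that varied among the MN1 arrays. For 21 of the 37 members RefSeq (build GRCm38.p6) gives a promoter sequence in the table used, of which the 250 bases before the annotated start were read. The strings below run 5′ to 3′ on the strand of the gene, and capitals mark matches on either strand to CCAAT, the CCAAT box, or AGGTCA, a half-site of nuclear receptors such as the retinoic acid receptor.
Hoxa5 (chr6:52204588-52204837, minus strand): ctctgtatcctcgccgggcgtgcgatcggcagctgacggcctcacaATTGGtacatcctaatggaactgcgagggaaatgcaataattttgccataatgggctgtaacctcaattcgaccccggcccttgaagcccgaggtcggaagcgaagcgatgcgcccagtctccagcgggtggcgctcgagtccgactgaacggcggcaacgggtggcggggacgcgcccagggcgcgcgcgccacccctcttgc
Hoxa6 (chr6:52208673-52208922, minus strand): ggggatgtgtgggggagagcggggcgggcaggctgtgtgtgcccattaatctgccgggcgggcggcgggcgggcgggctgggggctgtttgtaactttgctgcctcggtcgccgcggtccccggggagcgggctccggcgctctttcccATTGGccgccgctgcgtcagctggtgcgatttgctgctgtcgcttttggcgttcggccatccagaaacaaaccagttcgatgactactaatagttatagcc
Hoxa7 (chr6:52218574-52218823, minus strand): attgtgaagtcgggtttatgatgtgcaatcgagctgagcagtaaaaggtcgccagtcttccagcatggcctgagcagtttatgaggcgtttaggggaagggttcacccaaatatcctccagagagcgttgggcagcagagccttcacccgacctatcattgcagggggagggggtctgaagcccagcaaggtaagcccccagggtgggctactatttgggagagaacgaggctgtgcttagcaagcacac
Hoxa9 (chr6:52227371-52227620, minus strand): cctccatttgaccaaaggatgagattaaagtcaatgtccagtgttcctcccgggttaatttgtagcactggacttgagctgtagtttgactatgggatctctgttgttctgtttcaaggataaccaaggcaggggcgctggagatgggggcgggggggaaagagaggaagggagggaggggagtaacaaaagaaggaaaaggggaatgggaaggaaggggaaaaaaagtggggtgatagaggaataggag
Hoxb4 (chr11:96318017-96318266, plus strand): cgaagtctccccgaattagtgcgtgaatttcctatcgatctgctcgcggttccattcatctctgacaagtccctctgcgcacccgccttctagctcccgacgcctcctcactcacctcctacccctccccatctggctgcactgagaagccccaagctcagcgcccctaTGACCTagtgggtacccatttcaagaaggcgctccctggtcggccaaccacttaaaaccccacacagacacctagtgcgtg

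The Hoxa5 and Hoxa6 stretches each hold a CCAAT box on the opposite strand and that of Hoxb4 holds a nuclear receptor half-site on the opposite strand, while those of Hoxa7 and Hoxa9 hold neither. G and C made up 63.6% of the Hoxa5 stretch, 65.2% for Hoxa6, 54.8% for Hoxa7, 49.6% for Hoxa9 and 58.0% for Hoxb4. Over the 21 Hox promoters the median was 58.0%, with a median of 12 CpG dinucleotides, against 52.4% and 6 over all 32851 promoters of the table. CCAAT was found in 12 of the 21 Hox promoters (57.1%) and in 33.9% of all promoters. AGGTCA was found in 6 of 21 (28.6%), those of Hoxb4, Hoxc4, Hoxd3, Hoxd4, Hoxd8 and Hoxd10, and in 4607 of all 32851. Motifs bound by Hox proteins with Pbx (TGATNNAT) and by Meis (TGACAG) were each found in 2 of 21 (9.52%), against 7.68% and 15.9% of all. TATAAA was found in 2 of 21, against 12.4% of all. These are matches of letters and not sites shown to be bound, and none of the searched motifs contains another.

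In the Hoxb cluster, Hoxb4, which expands blood stem cells when overexpressed, measured 5.94, 6.58 and 6.51 in MN1 cells, against 6.72, 6.46 and 6.56 in empty vector cells. Its log2 difference of -0.24 ± 0.19 (SE) rested on MN1 replicate 1, without which it was -0.04. Hoxb3, also a gene of blood stem cells, measured 6.83, 6.85 and 6.96 in MN1 cells, against 7.21, 7.19 and 7.07 in empty vector cells. Its groups did not overlap, and the difference was -0.28 ± 0.09 (95% interval -0.50 to -0.05; adjusted p = 0.584, limma). Hoxb1, known for patterning the hindbrain, had 6.18, 6.34 and 6.18 in MN1 cells, against 6.45, 6.63 and 6.44 in empty vector cells, a difference of -0.27 ± 0.10 with no overlap. MN1 values also lay below all empty vector values for Hoxb7, at a difference of -0.16 ± 0.10. The remaining Hoxb genes, Hoxb2, Hoxb5, Hoxb6, Hoxb9 and Hoxb13, differed by -0.20 to -0.03 with overlapping groups.

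Hoxc genes pattern the trunk and hind part of the skeleton, and 7 of the 9 measured here were at or under the level set by the olfactory receptor genes. Hoxc5 showed the largest difference of all members, at 4.91, 5.22 and 5.05 in MN1 cells, against 5.49, 5.41 and 5.35 in empty vector cells. The groups did not overlap and the difference was -0.35 ± 0.11 (SE; 95% interval -0.62 to -0.08; adjusted p = 0.584, limma). Hoxc8, a gene of the thoracic skeleton, measured 4.82, 5.11 and 5.11 in MN1 cells, against 5.03, 5.41 and 5.44 in empty vector cells, a difference of -0.28 ± 0.15. The 2 members above the level set by the olfactory receptor genes, Hoxc9 and Hoxc12, had overlapping groups. Hoxc9 measured 5.25, 5.22 and 5.66 in MN1 cells, against 5.47, 5.32 and 5.59 in empty vector cells, and Hoxc12 measured 5.21, 5.32 and 5.45 in MN1 cells, against 5.40, 5.32 and 5.65 in empty vector cells. Their differences were -0.08 ± 0.15 and -0.13 ± 0.13. Hoxc4 and Hoxc10 had MN1 values below all empty vector values, at -0.20 ± 0.09 and -0.25 ± 0.12.

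Hoxd genes act mainly in limbs and the trunk. Hoxd11, which patterns the forearm together with Hoxa11, measured 6.31, 6.30 and 6.20 in MN1 cells, against 6.54, 6.42 and 6.73 in empty vector cells, a log2 difference of -0.29 ± 0.11 (SE; adjusted p = 0.584, limma) with no overlap. Its counterpart Hoxa11 differed by 0.06, as given above. Hoxd1, at the 3′ end of the cluster, measured 5.21, 5.21 and 5.17 in MN1 cells, against 5.43, 5.48 and 5.36 in empty vector cells, a difference of -0.22 ± 0.09, again with no overlap. Hoxd8 was the remaining member of this cluster without overlap, at -0.20 ± 0.09. Its mean level of 4.27 was under the level set by the olfactory receptor genes. Hoxd9 measured 5.66, 5.81 and 5.87 in MN1 cells, against 5.85, 6.12 and 6.10 in empty vector cells, a difference of -0.24 ± 0.12, and MN1 replicate 3 reached above empty vector replicate 1. Hoxd13, the gene of digit formation at the 5′ end, measured 4.68, 4.93 and 4.92 in MN1 cells, against 4.67, 5.06 and 4.78 in empty vector cells, and Hoxd3 measured 5.37, 5.32 and 5.28 in MN1 cells, against 5.12, 5.53 and 5.33 in empty vector cells. The groups overlapped for both, and the SE of the difference was 0.14 for Hoxd13 and 0.12 for Hoxd3. Hoxd13, at a mean level of 4.84, was also under the level set by the olfactory receptor genes.

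Paralogs, the counterparts of a gene in the other clusters, are the closest relatives to compare. Among paralog group 9, which holds 4 members, Hoxa9 differed by 0.01 and Hoxb9, Hoxc9 and Hoxd9 by -0.03, -0.08 and -0.24. In paralog group 1 both measured members, Hoxb1 and Hoxd1, had MN1 values below all empty vector values. In paralog group 4 the 4 members differed by -0.24 to -0.08, and in group 13 the 4 members by -0.12 to 0.00.

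MicroRNA genes lie between the Hox genes, and mature miR-10 and miR-196 are known to act on Hox messages. The mature sequences from RefSeq are shown to set out which of them share a seed (bases 2 to 8, in capitals), the part that pairs with targets.
mmu-miR-10a-5p: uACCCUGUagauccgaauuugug
mmu-miR-10b-5p: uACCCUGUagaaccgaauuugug
mmu-miR-196a-5p: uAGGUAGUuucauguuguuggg
mmu-miR-196b-5p: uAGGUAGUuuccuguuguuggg
mmu-miR-615-3p: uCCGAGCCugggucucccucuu

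The miR-10 pair, from Hoxb and Hoxd, shares one seed, and miR-196a, from Hoxb and Hoxc, and miR-196b, from Hoxa, share another, while miR-615 from Hoxc stands alone. The array labels long RNA, so a probe set for such a gene does not measure the mature microRNA. In all, 8 noncoding genes of the clusters were measured, with 1 above 0 and 7 below, a median log2 difference of -0.14 and 0 called. Of the 8, 2 had a mean level above that set by the olfactory receptor genes. Mir615 showed the largest difference, at 7.74, 7.82 and 7.65 in MN1 cells, against 7.65, 8.54 and 8.16 in empty vector cells, or -0.38 ± 0.22 (SE) with overlap. Hottip, a long noncoding RNA transcribed at the 5′ end of Hoxa, differed by -0.19 ± 0.10 without overlap. It measured 4.66, 4.85 and 4.76 in MN1 cells, against 5.02, 4.95 and 4.89 in empty vector cells. Its mean level of 4.86 was under the level set by the olfactory receptor genes. Mir196b, which lies beside Hoxa9, differed by -0.19 ± 0.18, and Mir10b by -0.17 ± 0.08 at a mean level of 3.30.

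Of the genes flanking the clusters 19 were measured, 11 above 0 and 8 below, a median of 0.04 and 0 called. Skap2, a leukocyte adaptor gene beside the Hoxa cluster, measured 9.86, 9.77 and 9.78 in MN1 cells, against 9.50, 9.60 and 9.63 in empty vector cells. That is a log2 difference of 0.23 ± 0.09 (SE; adjusted p = 0.584, limma), with MN1 above and no overlap. Evx1, a homeobox gene beside Hoxa13, differed by -0.22 ± 0.12 and Evx2, beside Hoxd13, by -0.20 ± 0.13. Ttll6, at the same end of its cluster beside Hoxb13, differed by -0.18 ± 0.09, with MN1 below and no overlap. Ttll6 and Evx1 had mean levels of 4.76 and 5.25, under the level set by the olfactory receptor genes. At the other ends, Skap1 beside Hoxb1 differed by -0.17 ± 0.20, Smug1 beside Hoxc4 by -0.10 ± 0.10 and Mtx2 beside Hoxd1 by 0.13 ± 0.17. The largest differences of the list were 0.40 ± 0.28 for Calcoco1, beside Hoxc13, and 0.26 ± 0.20 for Nfe2l1, with overlap in both.

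Hox proteins bind DNA with TALE cofactors of the Meis, Pbx and Pknox families, and of 8 measured, 5 were above 0 and 3 below, with 0 called. Meis1, the partner of Hoxa9, measured 9.80, 10.35 and 9.95 in MN1 cells, against 9.41, 8.33 and 9.55 in empty vector cells. Its groups did not overlap, and its log2 difference was 0.94 ± 0.34 (SE; 95% interval 0.12 to 1.76; adjusted p = 0.584, limma). Without empty vector replicate 2, the lowest array, it was 0.56. Pknox2 differed by -0.73 ± 0.46 and Pbx3, which also pairs with Hoxa9, by 0.28 ± 0.22, both with overlap. With 1 array left out, Pbx3 ran from 0.11 without empty vector replicate 2 to 0.48 without empty vector replicate 1, and it was 0.15 without MN1 replicate 2. Pbx4 was the other cofactor without overlap, at 6.19, 6.47 and 6.18 in MN1 cells, against 6.73, 6.77 and 6.53 in empty vector cells, a difference of -0.40 ± 0.12 (adjusted p = 0.584, limma). The interval of Meis1 lies wholly above 0, whereas that of Hoxa9 spans it; whether the pair differ was not tested.

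Regulators of the Hox clusters include the MLL (Kmt2a) and menin activators, the Cdx factors, the retinoic acid receptors and the Polycomb repressors. Of 28 measured, 15 were above 0 and 13 below, with a median log2 difference of 0.05 and 0 called. Mllt3, a partner of MLL in fusion oncogenes, measured 7.90, 8.37 and 8.41 in MN1 cells, against 7.31, 6.96 and 7.39 in empty vector cells, or 1.01 ± 0.18 (SE) without overlap. Rara, the retinoic acid receptor of myeloid cells, differed by -0.37 ± 0.32 with overlap. Kmt2a itself differed by 0.28 ± 0.27, and Ezh2, the Polycomb methyltransferase, by -0.09 ± 0.27. Of 8 genes known as targets of Hoxa9 and Meis1, 6 were above 0 and 2 below. The largest differences were those of Flt3 at 1.83 ± 0.39 and Lmo2 at 0.49 ± 0.12, both without overlap and neither called (adjusted p = 0.584, limma). Flt3, Lmo2, Erg and Mllt3 are also among the 14 stem and early progenitor markers averaged above, so these lists share values.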

How the data were processed

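RNA from sorted mouse marrow cells (200 ng per array) was hybridised to one-colour Affymetrix whole-transcript arrays, per the labels' protocols. The authors deposited 1 value per probe set and array on the log2 scale, as the values themselves show. The submitters' processing notes name RMA. Its version, the genome build and the set of arrays normalized at once: not given in the sources used here. RMA pulls dim values together, so differences of weakly expressed genes are understated.

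All 6 columns were used. Of 35557 probe sets, 21789 carry 1 gene symbol in the platform annotation of 2016, 1621 several and 12147 none. A gene's brightest probe set was kept, which left 19938 genes; no Hox gene had more than 1. Groups come from the sample titles. Differences are MN1 minus empty vector by limma (version 3.58.1, R 4.3.3; lmFit and eBayes, two-sided, no block), with moderated SE, 4 residual and 2.43 prior degrees of freedom, and Benjamini-Hochberg adjustment over all genes. With 3 arrays per group their number limits the precision, and nothing ties replicate numbers to the experiments, so p-values measure the spread between these arrays.

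The members and lists were chosen with earlier results of these data known, and the gene set of like level was defined after seeing the data. Array values are given for the 3 Hox genes of highest mean in each cluster, the 4 with the largest difference in each direction and those at an unadjusted p under 0.05; of the other lists, Mn1, Meis1, Pbx3, the 2 members with the largest difference and genes next to the clusters are named. Further genes named in a list, such as Kmt2a, Ezh2, Pbx4, Myb, Mir10b and Mir196b, were added after their values were seen. The array values of Hoxa5 and Hoxa6, which meet none of these rules, were also added after they were seen.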

Additional observations from a re-analysis of the deposited data

How the results depend on the processing

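Under all 14 alternatives 0 Hox genes were called. As 0 of all genes tested were called in any of them, this is not particular to the members. The median over the members kept its sign, from -0.18 to -0.08. At an unadjusted p under 0.05 the member count of 5 became 3 with the replicate block and 1 after median-centring. It became 0 without the dimmest 40% of probe sets and 0 without genes at or under the olfactory receptor level. Over all genes the counts were 1675 of 19938 in the main fit, 1980 with the block and 1377 after median-centring. Under the 2 filters they were 1031 of 13681 and 1036 of 13723. With 1 array left out the member count ran from 1 to 4 and the count over all genes from 906 to 1953. Under both filters 21 members were tested, among them 4 of the 5 genes. The array values and log2 differences of these 4 were the same, and only the set of genes from which eBayes takes its prior was smaller. The count of 9 members without overlap became 5 of the 21 tested under both filters. It ran from 10 to 16 with 1 array left out, where fewer arrays make separation easier. The matching counts over all genes are not given for these settings. The Hoxc median became -0.11 under both filters, which leave 2 of its genes. The lowest array weight, 0.706, was that of MN1 replicate 1. With array weights the median of paralog groups 1 to 4 was -0.16. With 1 array left out that median ran from -0.19 to -0.056 and the Hoxd median from -0.23 to -0.12. The cause of the other shifts was not tested. Among the 20 genes followed, 4 (Hoxa9, Hoxa11, Hoxd3 and Hoxd13) changed sign in 16 instances, each with a difference over all 6 arrays smaller than its SE. Same-numbered arrays deviated together at correlations of 0.13, 0.07 and 0.32 across genes. MN1 replicate 2 correlated best with empty vector replicate 1 (0.44), so the numbers were not taken to pair the arrays. The replicate block called 0 genes, as every setting did, so that count cannot decide on pairing. With the block the smallest adjusted p over all genes (limma) was 0.458, against 0.579 in the main fit.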
